A study of Mus musculus with 12 samples.

Results

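The elastic fiber and microfibril genes were followed here in 12 mouse bulk RNA sequencing libraries. The 10 members were chosen by name, as the fibrillins Fbn1 and Fbn2, the fibulins Fbln1, Fbln2 and Fbln5, elastin (Eln), and the partner genes Emilin1, Mfap2, Mfap4 and Mfap5. They are 10 of 24421 genes in the main deposited table. All 10 were among the 18948 varying genes that are also listed in the other deposited table, and these genes were tested. All values are stabilized log2 values per gene. The scale tracks log2 expression where a gene is well expressed and flattens toward a floor where it has few reads. The floor was 4.75 in 1451 genes that did not vary and lay up to 1.92 above or below that in others. A difference of 1 on this scale is a doubling for a well expressed gene and understates the change of a gene near the floor.

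There were 6 libraries of KO tumors, sarcomas that arose in or near bone and its marrow in p53 knockout mice. They were set against 3 libraries labelled KO MSC and 3 WT MSC libraries, mesenchymal stem cells from the marrow of p53 knockout and p53 wild-type mice. The MSCs had been sorted as CD45-, Ter119- and CD31- cells that carried LepR and CD140a, and the tumors had been extracted with TRIzol with no sort described. All libraries are labelled as freshly isolated, and neither an age nor the deleted stretch of the p53 gene is given in the labels. Whether each library came from its own animal is not labelled, so the p-values reflect the spread among these libraries alone, and that spread may be technical.

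Elastic fibers let tissues stretch and recoil, and each has a core of cross-linked elastin on a scaffold of fibrillin microfibrils. Fibulins, emilins and the small microfibril-associated proteins sit on or between both parts, and fibulin-5 and the lysyl oxidases are needed to turn soluble tropoelastin into a fiber. Microfibrils also hold latent TGF-beta and BMP growth factors in the matrix, which is why they are studied in bone and in tumor stroma.

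Trp53, the gene that encodes p53 (chromosome 11, 69580359 to 69591873, plus strand), had values of 6.79 to 9.16 in tumors, against 10.49, 9.76 and 6.96 in the libraries labelled KO_MSC 1, 2 and 3 and 9.96, 10.04 and 10.61 in WT_MSC 1, 2 and 3. The library labelled KO_MSC 1 lay within the WT MSC range and KO_MSC 2 just below it, both above every tumor. Trp53 thus did not bear out the label in KO_MSC 1 and hardly did in KO_MSC 2, so every direction that involves KO MSC rests on the labels. By values that libraries share exactly, they form 2 batches. Batch 1 held tumors 1 to 3, the library labelled KO_MSC 1 and WT_MSC 1, and batch 2 held the other 7 libraries. Depth is unknown, but libraries differed in how many genes lay at the floor: 2632 in the one labelled KO_MSC 1 and 3730 in WT_MSC 1, against 9251 to 12336 in the others, with the most in the one labelled KO_MSC 3. Lepr, a gene of the sort, was between 4.10 and 8.93 in tumors, between 11.63 and 14.12 in the libraries labelled KO MSC and between 14.56 and 15.60 in WT MSC. Pdgfra, which encodes the other sort marker, CD140a, was between 8.42 and 10.92 in tumors, 9.11 and 9.93 in KO MSC and 11.38 and 11.81 in WT MSC, so tumors overlapped the libraries labelled KO MSC (difference -0.22 ± 0.55, adjusted p = 0.828).

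Several members carry the codons for arginine, glycine and aspartate, a triplet known in fibulin-5, Mfap5, Mfap4 and fibrillin-1 as a site that integrins on the cell surface bind. In the longest coding sequence of each member (GENCODE M21, GRCm38), 7 of the 10 members held the triplet at least once, and Fbln1, Eln and Mfap2 held none. The stretches of the 5 members that passed the test in at least 1 comparison are shown with the triplet in capitals. The Fbln5 and Fbn1 stretches each lie in 1 exon, at chr12:101809915-101809947 and chr2:125345961-125345993, both on the minus strand, and that of Emilin1 in 1 exon at chr5:30918136-30918168 on the plus strand. The Mfap5 and Mfap4 stretches are spliced from exons between chr6:122515365-122520592 and chr11:61485784-61486048, both on the plus strand.
Fbln5: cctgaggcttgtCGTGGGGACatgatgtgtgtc
Mfap5: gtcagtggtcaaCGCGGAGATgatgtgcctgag
Mfap4: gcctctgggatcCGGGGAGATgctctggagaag
Fbn1: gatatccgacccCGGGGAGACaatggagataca
Emilin1: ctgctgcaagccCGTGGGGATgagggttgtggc

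The comparisons asked how tumors differ from marrow stromal cells of each genotype and how stromal cells of the knockout differ from those of the wild type. Against WT MSC, 5 of the 10 members passed in tumors: Mfap5 and Mfap4 rose, and Fbln5, Fbn1 and Emilin1 fell. Over all genes tested, 21.3% passed in this comparison, 10.4% higher and 10.9% lower (limma, adjusted p under 0.05). The median difference of the members was 0.29, against -0.06 for all genes, so the members moved in both directions rather than as a block. Against the libraries labelled KO MSC, 2 members passed, Mfap5 as higher and Fbln5 as lower, and 4.98% of all genes passed, 2.7% higher and 2.28% lower. There the median difference of the members was 1.04, against 0.04 for all genes. Of all genes, 512 passed as higher and 432 as lower against KO MSC, and quantile scaling gave 520 and 961. Both comparisons use the same 6 tumors, so they are not independent of each other. A tumor library holds several cell types, and fewer cells of a type and less RNA per cell cannot be told apart.

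**Figure D1:**
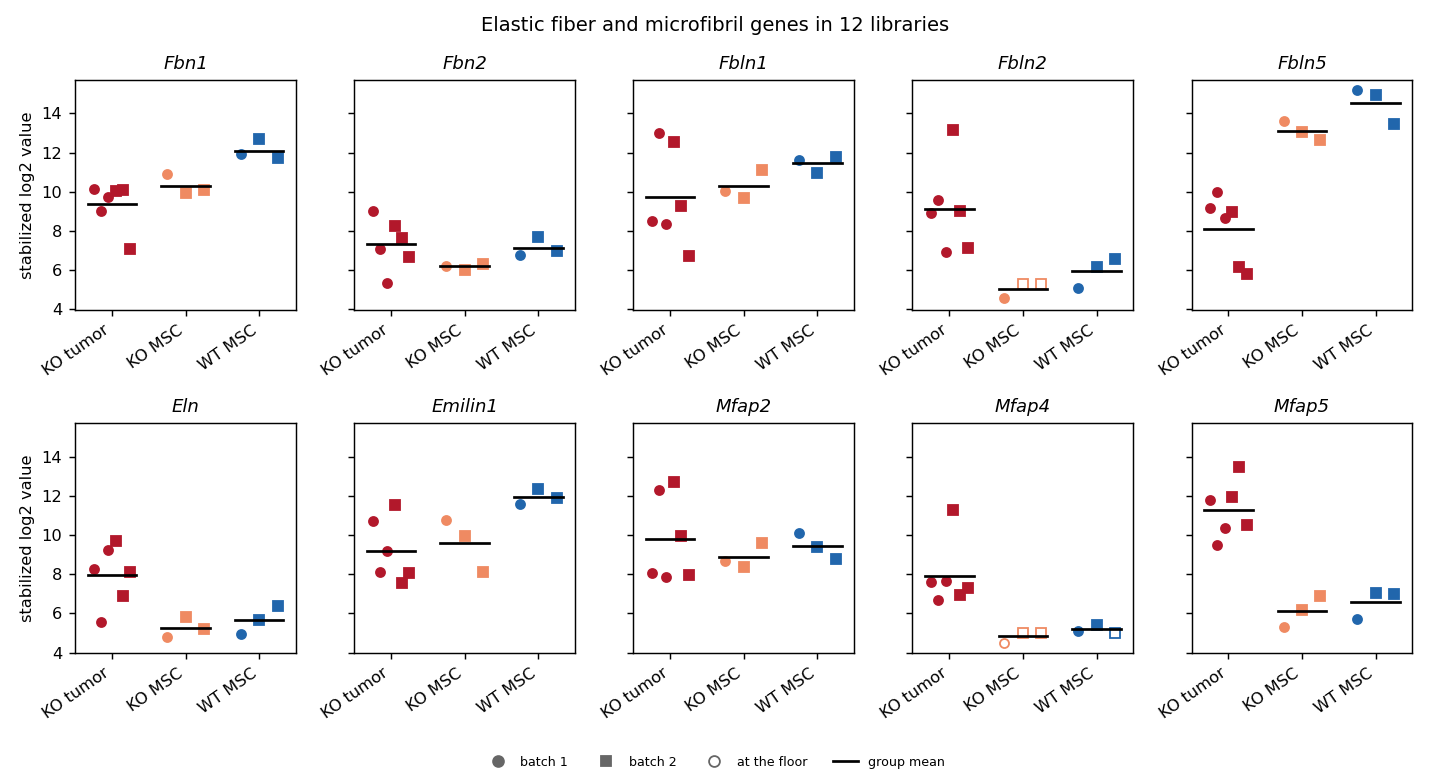
Stabilized log2 value (vertical axis) of each of the 10 genes in KO tumors (red, n = 6), libraries labelled KO MSC (orange, n = 3) and WT MSC (blue, n = 3). Circles are batch 1, squares batch 2, open symbols lie at the floor and bars are group means. Mfap5 in tumors lay between 9.47 and 13.46, above every MSC library, and Fbln5 lay between 5.80 and 9.97, below every MSC library.

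Between the 3 libraries labelled KO MSC and the 3 WT MSC libraries, limma called 0 members and 0% of 18948 genes, while 1637 genes, 8.64%, had an unadjusted p under 0.05. With library weights, whose estimation did not converge in this comparison, it called 2447 genes and 4 members (Fbn1, Fbln1, Fbln2 and Emilin1). All 10 members nevertheless had a difference below 0, with a median of -0.92 against -0.01 for all genes, of which 52.2% were below 0. Mfap4 lay at the floor in all 3 libraries labelled KO MSC, so its difference could not lie above 0. Fbln2 lay at the floor in the libraries labelled KO_MSC 2 and 3, which left its sign little room. Fbn1, Fbn2 and Emilin1 did not overlap between the groups, all 3 lower in the libraries labelled KO MSC, while 15.2% of all genes did not overlap in either direction and 8.93% were lower without overlap. Fbn1, Fbln1 and Emilin1 had unadjusted p values under 0.05, as did 6.07% of all genes in that direction. The markers of stromal identity, the list to which Lepr and Cxcl12 belong, were below 0 in 8 of 8 genes with a median of -1.52, and neutrophil and erythroid markers had medians of 1.41 and 0.90. Rn45s, a ribosomal RNA precursor, lay at 17.92, 17.50 and 19.75 in KO_MSC 1 to 3 by label, above its 16.78, 16.39 and 16.05 in WT_MSC 1 to 3. The library labelled KO_MSC 3 also had the lowest median over tested genes, 5.89, against 6.69 to 6.94 in the other MSC libraries. The part of these markers, of Rn45s and of that library median in the members' differences was not tested.

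Elastin itself, the rubber-like core protein (Eln, chromosome 5, 134702593 to 134747323, minus strand), was near the floor in sorted stromal cells and had higher values in most tumors. Its lowest, median and highest values were 5.58, 8.16 and 9.67 in tumors, against 4.78, 5.80 and 5.21 in the libraries labelled KO_MSC 1, 2 and 3 and 4.97, 5.64 and 6.39 in WT_MSC 1, 2 and 3. The groups overlapped only through tumor 2, at 5.58, and the other 5 tumors lay above every MSC library. The difference was 2.69 ± 0.80 (SE) against KO MSC (adjusted p = 0.0749) and 2.28 ± 0.80 against WT MSC (adjusted p = 0.0660), and neither passed. It was 2.90 and 2.71 within batches 1 and 2 against KO MSC, and 2.71 and 2.202 against WT MSC. Without tumor 2 both passed, at 3.16 (adjusted p = 0.0253) and 2.76 (adjusted p = 0.0139). Over the 18 alternatives of each, the adjusted p ranged from 0.0136 to 0.401 against KO MSC and from 0.0139 to 0.438 against WT MSC.

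Fbln5 (chromosome 12, 101746565 to 101819055, minus strand) encodes fibulin-5, which ties tropoelastin to microfibrils and to integrins and without which mice fail to form normal elastic fibers. It had the largest difference of the 10 members against WT MSC. In tumors the lowest, median and highest values were 5.80, 8.82 and 9.97, against 13.61, 13.07 and 12.64 in the libraries labelled KO_MSC 1, 2 and 3 and 15.18, 14.91 and 13.47 in WT_MSC 1, 2 and 3. Every tumor lay below every MSC library, and tumors 5 and 6 were the lowest. Against WT MSC, Fbln5 fell in tumors by 6.40 ± 0.90 (SE, n = 6 and 3, adjusted p = 0.00162), and the differences within batches 1 and 2 were -5.92 and -7.20. Against KO MSC it fell by 4.98 ± 0.86 (n = 6 and 3, adjusted p = 0.00992), with -4.36 and -5.86 within the batches. The call against WT MSC held in all 18 alternatives, with adjusted p from 0.000170 to 0.0354. The call against KO MSC held in 15 of 18, with adjusted p from 0.000466 to 0.0891, and the highest came without the library labelled KO_MSC 1.

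The promoter table (RefSeq, GRCm38.p6) held windows for 6 of the 10 members, Fbn1, Fbln1, Fbln2, Fbln5, Emilin1 and Mfap2. The 250 bases before the outer annotated start of Fbln5, at chr12:101819120-101819369 on the minus strand, are shown because this gene had the largest difference. Capitals mark the GC box (GGGCGG on either strand), which occurred 2 times there and at least once in 32.7% of 32851 windows of this length. The window held 21 CpG dinucleotides, against a median of 6 and quartiles of 2 and 16 over all windows. The other window of Fbln5, at chr12:101818485-101818734, overlaps exons of the gene and held 0 GC boxes and 6 CpG dinucleotides. No data on binding or methylation were used here.
Fbln5 promoter: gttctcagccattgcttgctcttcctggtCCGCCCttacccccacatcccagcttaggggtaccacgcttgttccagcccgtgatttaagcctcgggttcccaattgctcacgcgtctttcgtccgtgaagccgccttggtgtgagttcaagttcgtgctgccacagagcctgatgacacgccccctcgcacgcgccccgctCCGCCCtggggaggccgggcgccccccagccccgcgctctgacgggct

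Emilin1 (chromosome 5, 30913402 to 30921277, plus strand) encodes a glycoprotein of the interface between elastin and microfibrils that is also known to hold back TGF-beta processing. Across tumors its minimum, median and maximum were 7.56, 8.66 and 11.55, against 10.75, 9.93 and 8.12 in the libraries labelled KO_MSC 1, 2 and 3 and 11.56, 12.32 and 11.87 in WT_MSC 1, 2 and 3. Tumors lay below every WT MSC library, narrowly for tumor 4 at 11.55, and overlapped the libraries labelled KO MSC. Against WT MSC, Emilin1 fell in tumors by 2.72 ± 0.81 (SE, n = 6 and 3, adjusted p = 0.0368), with -2.23 and -3.04 within batches 1 and 2. This call was lost in 12 of 18 alternatives, among them a batch term (adjusted p = 0.0671) and leaving out any library other than tumor 1 or tumor 4, and the adjusted p ranged from 0.00138 to 0.368. In tumors against KO MSC the difference was -0.40 ± 0.89 (adjusted p = 0.808). In the libraries labelled KO MSC against WT MSC, Emilin1 had the largest difference of the members, -2.32 ± 0.66 (SE, n = 3 each, unadjusted p = 0.00805, adjusted p = 0.551). It was -0.82 within batch 1 and -3.07 within batch 2, and -1.58 without the library labelled KO_MSC 3, which held the lowest value.

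Mfap4 (chromosome 11, 61485431 to 61488900, plus strand) encodes a secreted protein with a fibrinogen-like domain that binds elastic fibers. The lowest, median and highest tumor values were 6.68, 7.44 and 11.27. Mfap4 lay at the floor in all 3 libraries labelled KO MSC (4.51, 4.99 and 4.99) and in WT_MSC 3 (4.99), and was 5.12 and 5.42 in WT_MSC 1 and 2. Every tumor therefore lay above every MSC library, with tumor 4 far above the other 5. Against WT MSC, Mfap4 rose in tumors by 2.72 ± 0.86 (SE, n = 6 and 3, adjusted p = 0.0445), and by 2.18 and 3.29 within batches 1 and 2. That call held in 8 of 18 alternatives, with adjusted p from 0.00219 to 0.177, and was lost on leaving out any WT MSC library or tumor 1, 3 or 6. It held without tumor 4, at a difference of 2.05 (adjusted p = 0.00219). Against the KO MSC libraries, all at the floor, the difference of stabilized values was 3.07 ± 0.86 (adjusted p = 0.0645). Exons of Mfap4 overlap those of Mapk7 on the opposite strand, and the libraries do not mark strand, so reads from the overlap cannot be told apart. The same holds for Fbn1 and Gm9913, Fbn2 and Gm26507, and Eln and Gm30003.

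**Figure D2:**
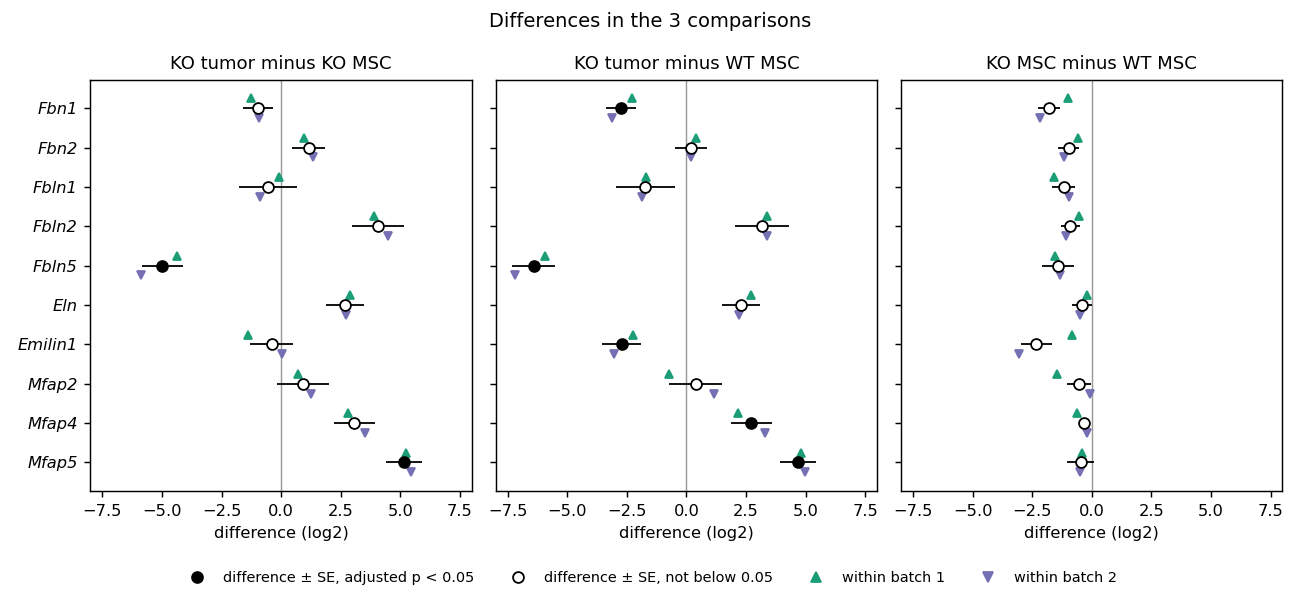
Difference in stabilized log2 value (horizontal axis) of each gene, shown as the mean difference with its standard error for KO tumors minus KO MSC, KO tumors minus WT MSC (n = 6 and 3) and KO MSC minus WT MSC (n = 3 each). Filled circles passed at an adjusted p under 0.05, and triangles give the difference within batch 1 (pointing up) and batch 2 (pointing down). Fbln5 and Mfap5 stand at -6.40 and 4.67 against WT MSC, and all 10 genes lie below 0 in the MSC comparison.

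Fbn1 (chromosome 2, 125300594 to 125507993, minus strand) encodes fibrillin-1, the main building block of microfibrils and the gene mutated in human Marfan syndrome. Its lowest, median and highest values were 7.10, 9.89 and 10.12 in tumors, against 10.91, 9.95 and 10.09 in the libraries labelled KO_MSC 1, 2 and 3 and 11.90, 12.69 and 11.70 in WT_MSC 1, 2 and 3. Both the tumors and the libraries labelled KO MSC lay wholly below WT MSC and overlapped each other, and 5 of the 6 tumors were between 9.04 and 10.12. Against WT MSC, Fbn1 fell in tumors by 2.75 ± 0.63 (SE, n = 6 and 3, adjusted p = 0.0119), with -2.27 and -3.13 within batches 1 and 2. The call held in 15 of 18 alternatives, with adjusted p from 0.00144 to 0.121, and was lost without WT_MSC 2 (adjusted p = 0.0620) and in each batch alone. In tumors against KO MSC the difference was -0.96 ± 0.64 (adjusted p = 0.354). In the libraries labelled KO MSC against WT MSC it was -1.79 ± 0.45 (n = 3 each, unadjusted p = 0.00439, adjusted p = 0.551), with -0.99 in batch 1 and -2.18 in batch 2.

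Fbn2 (chromosome 18, 58008623 to 58210487, minus strand) encodes fibrillin-2, known as the fibrillin of developing tissue. In tumors the lowest, median and highest values were 5.36, 7.37 and 9.04, against 6.22, 6.02 and 6.32 in the libraries labelled KO_MSC 1, 2 and 3 and 6.78, 7.69 and 6.96 in WT_MSC 1, 2 and 3. Tumors spanned both MSC groups, while the libraries labelled KO MSC lay together just below WT MSC. The difference was 1.16 ± 0.69 (adjusted p = 0.302) in tumors against KO MSC and 0.20 ± 0.68 (adjusted p = 0.854) against WT MSC. It was -0.96 ± 0.44 (unadjusted p = 0.0635, adjusted p = 0.596) in KO MSC against WT MSC, and none of the 3 passed.

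Mfap5 (chromosome 6, 122505845 to 122529290, plus strand) encodes MAGP-2, a small microfibril protein that binds fibrillins and, through the triplet shown above, integrins. It was the member with the largest rise in tumors. Across tumors its minimum, median and maximum were 9.47, 11.145 and 13.46, against 5.32, 6.16 and 6.87 in the libraries labelled KO_MSC 1, 2 and 3 and 5.73, 7.03 and 6.99 in WT_MSC 1, 2 and 3. The lowest tumor lay above the highest MSC library by more than the whole range of either MSC group. Mfap5 rose by 4.67 ± 0.76 (SE, n = 6 and 3) against WT MSC (adjusted p = 0.00253) and by 4.80 and 4.97 within batches 1 and 2. Against KO MSC it rose by 5.14 ± 0.76 (n = 6 and 3, adjusted p = 0.00518) and by 5.22 and 5.46 within the batches. Its MSC values lay near the floor, where a difference understates the change, so no linear fold is given. Against WT MSC the call held in 17 of 18 alternatives, with adjusted p from 0.000210 to 0.118, the highest in batch 1 alone. Against KO MSC it held in 15 of 18, with adjusted p from 0.000215 to 0.0945, and was lost without the library labelled KO_MSC 1 (adjusted p = 0.0552).

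Mfap2 (chromosome 4, 141010418 to 141015984, plus strand) encodes MAGP-1, the relative of MAGP-2 that binds fibrillin and TGF-beta family factors. Its lowest, median and highest values were 7.84, 9.005 and 12.72 in tumors, against 8.68, 8.36 and 9.60 in the libraries labelled KO_MSC 1, 2 and 3 and 10.12, 9.38 and 8.76 in WT_MSC 1, 2 and 3. Tumors 2 and 4, at 12.30 and 12.72, lay above every MSC library, and tumors 1, 3 and 6, at 8.06, 7.84 and 7.97, lay below every one. The difference was 0.93 ± 1.09 (adjusted p = 0.621) against KO MSC and 0.39 ± 1.12 (adjusted p = 0.825) against WT MSC. Against WT MSC the sign itself changed with the batch, at -0.72 in batch 1 and 1.14 in batch 2.

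Fbln2 (chromosome 6, 91212455 to 91272540, plus strand) encodes fibulin-2, a larger fibulin that binds fibrillin-1, fibronectin and tropoelastin. In tumors the lowest, median and highest values were 6.92, 8.97 and 13.15, against 4.58, 5.29 and 5.29 in the libraries labelled KO_MSC 1, 2 and 3, of which KO_MSC 2 and 3 lay at the floor, and 5.10, 6.16 and 6.58 in WT_MSC 1, 2 and 3. Every tumor lay above every MSC library. The difference was 4.07 ± 1.10 (SE) against KO MSC (adjusted p = 0.0569) and 3.17 ± 1.13 against WT MSC (adjusted p = 0.0701), and neither passed. It was 3.89 and 4.47 within batches 1 and 2 against KO MSC, and 3.38 and 3.39 against WT MSC. Without tumor 4, the highest, the differences shrank to 3.26 and 2.37 and both passed, with adjusted p values of 0.0302 and 0.0294, and both also passed without tumor 3 (adjusted p = 0.0455 and 0.0488). Over the 18 alternatives of each, the adjusted p ranged from 0.00966 to 0.234 against KO MSC and from 0.0294 to 0.249 against WT MSC.

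Fbln1 (chromosome 15, 85205949 to 85286535, plus strand) encodes fibulin-1, which is found in elastic fibers, basement membranes and blood plasma. Across tumors its minimum, median and maximum were 6.72, 8.89 and 12.99, against 10.05, 9.69 and 11.13 in the libraries labelled KO_MSC 1, 2 and 3 and 11.64, 10.98 and 11.75 in WT_MSC 1, 2 and 3. Tumors 2 and 4 lay above every MSC library and the other 4 lay below every one. The difference was -0.56 ± 1.21 (adjusted p = 0.802) against KO MSC and -1.73 ± 1.23 (adjusted p = 0.325) against WT MSC, smaller than the spread between tumors (SD 2.49). In the libraries labelled KO MSC against WT MSC it was -1.17 ± 0.48 (n = 3 each, unadjusted p = 0.0413, adjusted p = 0.566), with an overlap between KO_MSC 3 and WT_MSC 2.

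Counted over all members, 6 did not overlap between tumors and WT MSC (Fbln2, Mfap4 and Mfap5 higher, Fbln5, Fbn1 and Emilin1 lower), and 25.2% of all genes did not overlap in that comparison. Between tumors and KO MSC 4 did not overlap (Fbln2, Mfap4 and Mfap5 higher, Fbln5 lower), and 13.4% of all genes did not.

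Relatives within a family differed in how their balance lay in tumors and in stromal cells. The difference between a pair within a library depends on gene length, so its sign has no meaning and only its shift between groups is described. These pairs were picked after the values were seen and were not tested. Fbln2 minus Fbln1 lay between -3.39 and 0.62 in tumors, between -5.84 and -4.40 in the libraries labelled KO MSC and between -6.55 and -4.82 in WT MSC. All 6 tumors were thus above all 6 MSC libraries, on the side of Fbln2. Fbln2 lay at the floor in the libraries labelled KO_MSC 2 and 3, so their pair difference follows the Fbln1 level alone. Fbn2 minus Fbn1 lay between -4.37 and -0.41 in tumors, between -4.69 and -3.77 in KO MSC and between -5.12 and -4.74 in WT MSC, and tumor 3, which held the lowest Fbn2 value, was the 1 tumor within the KO MSC range. Mfap5 minus Mfap2 lay between -2.83 and 3.71 in tumors, between -3.36 and -2.19 in KO MSC and between -4.39 and -1.78 in WT MSC. Here tumor 2 was inside the range of both MSC groups and the other 5 tumors were above them.

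**Figure D3:**
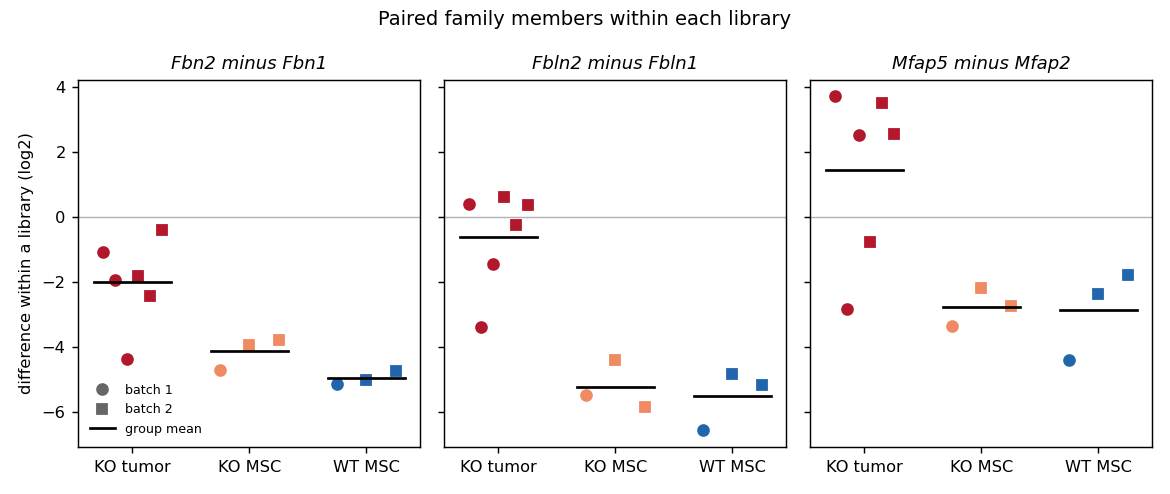
Difference in stabilized log2 value between 2 relatives within the same library (vertical axis), for Fbn2 minus Fbn1, Fbln2 minus Fbln1 and Mfap5 minus Mfap2, in KO tumors, libraries labelled KO MSC and WT MSC. Circles are batch 1, squares batch 2 and bars group means. The Fbln2 minus Fbln1 difference is at least -3.39 in every tumor and at most -4.40 in every MSC library. Fbln2 lay at the floor in the libraries labelled KO_MSC 2 and 3.

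The members varied more between tumors than most genes did. Their SD over the 6 tumors ran from 1.18 for Fbn1 to 2.49 for Fbln1, with a median of 1.65, against 0.53 over all tested genes, many of which lie at or near the floor. No single order of tumors held for all of them. Tumor 4 was the highest in 5 of the 10 members (Fbln2, Eln, Emilin1, Mfap2 and Mfap4) and among the top 2 in 8. Tumors 2, 3 and 6 were each the lowest in 3.

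Over the 6 tumors and 45 pairs of members, the highest rank correlations were between Fbln2 and Mfap2 (Spearman rho 1), Eln and Mfap4 (1), Fbln1 and Mfap2 (0.89), and Fbln1 and Fbln2 (0.89). The lowest were between Fbln5 and Mfap5 (-0.37), Fbln1 and Eln (-0.26) and Fbln1 and Mfap4 (-0.26). These are descriptions over 6 libraries of 2 batches that share cell makeup and preparation. Fbln1, Fbln2 and Mfap2 all had their highest values in tumors 2 and 4 and their lowest in tumors 1, 3 and 6. The summed level of osteoblast markers, the log2 of the added antilogs of 6 genes, was 19.6, 10.3, 17.0, 10.6, 11.8 and 16.6 in tumors 1 to 6, so the same tumors 1, 3 and 6 had the highest osteoblast levels. Eln and Mfap4 shared 1 order, tumors 4, 3, 1, 6, 5 and 2 from high to low. The summed level of skeletal muscle markers was 10.8, 7.80, 14.4, 19.5, 9.42 and 8.40 in tumors 1 to 6, likewise highest in tumor 4, then 3, then 1, and lowest in tumor 2. This was not particular to skeletal muscle. Smooth muscle and pericyte markers (14.9 and 11.2) and endothelial markers (11.4 and 9.34) were also highest in tumor 4 and lowest in tumor 2. The marker lists set beside the members here were picked after the values were seen. Mfap5 was highest in tumor 5, at 13.46, then tumor 4, at 11.96. The summed level of markers of adventitial and fascial fibroblasts was 11.1, 12.5, 12.2, 14.5, 15.5 and 11.8 in tumors 1 to 6, also highest in tumor 5 and then tumor 4. Ly6a was the largest term of that sum in tumors 5 and 4, at 14.81 and 14.12. The part of these markers in the members' values was not tested.

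**Figure D4:**
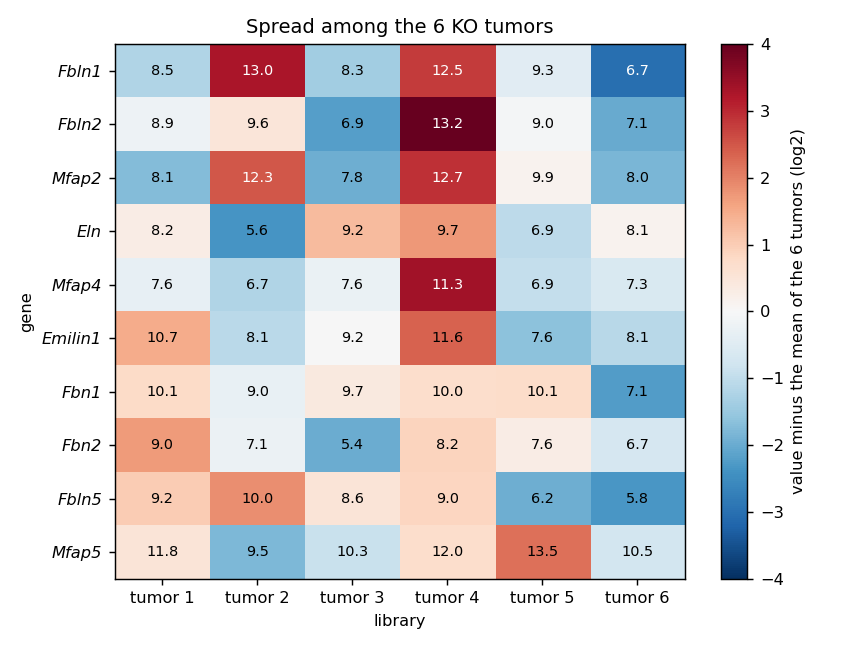
Stabilized log2 value of each gene (rows) in KO tumors 1 to 6 (columns), printed in each cell, with the color giving the value minus the mean of the 6 tumors. Fbln1, Fbln2 and Mfap2 are highest in tumors 2 and 4, and Mfap4 reaches 11.3 in tumor 4 and at most 7.6 in the others.

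The promoters of Fbln1 and Mfap2 are shown as examples of the 3 genes with like orders over tumors, Fbln1, Fbln2 and Mfap2. They are the bases before an annotated start that lie outside exons, at chr15:85205699-85205948 and chr4:141010174-141010417, both on the plus strand (RefSeq, GRCm38.p6). Capitals mark the SMAD box (CAGACA on either strand), the short motif that factors downstream of TGF-beta bind, which occurred once in each and in 17.1% of all 32851 windows. The motif was not shared by all windows of the 3 genes: that of Fbln2, at chr6:91212514-91212763, and the second window of Mfap2, at chr4:141010431-141010680, held 0. The second window of Fbln1, at chr15:85205758-85206007, overlaps the first, and its 1 match is the same site. Nor was it limited to these genes. The window of Emilin1 and the one of Fbln5 at chr12:101818485-101818734 held 1 each, while that of Fbn1 and the outer one of Fbln5 held 0. Such a match is a description of the letters and shows no binding.
Fbln1 promoter: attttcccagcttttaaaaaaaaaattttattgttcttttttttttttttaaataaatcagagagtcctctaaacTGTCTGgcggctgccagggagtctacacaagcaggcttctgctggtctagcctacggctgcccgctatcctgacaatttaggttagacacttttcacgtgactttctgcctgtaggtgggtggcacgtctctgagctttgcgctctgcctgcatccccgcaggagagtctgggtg
Mfap2 promoter: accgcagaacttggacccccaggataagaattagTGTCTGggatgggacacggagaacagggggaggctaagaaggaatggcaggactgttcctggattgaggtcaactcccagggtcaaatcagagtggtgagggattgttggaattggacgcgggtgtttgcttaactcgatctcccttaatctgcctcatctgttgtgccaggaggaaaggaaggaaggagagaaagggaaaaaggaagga

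The other genes of elastic fiber biology were read from 6 lists. Their counts stand beside 21.3% of all genes that passed against WT MSC and 4.98% against KO MSC, and their medians beside -0.06 and 0.04. Among 7 latent TGF-beta binding proteins and ligands, 0 rose and 4 fell in tumors against WT MSC, with a list median of -2.42 against -0.06 for all genes. Ltbp2, a fibrillin-binding relative of the latent TGF-beta binding proteins, fell by 5.24 ± 0.62 (adjusted p = 0.00113), and Ltbp1, which tethers latent TGF-beta to microfibrils, fell by 2.67 ± 0.58 (adjusted p = 0.00881). Both calls held without any 1 library. Tgfb3 and Ltbp3 fell by 2.91 ± 0.88 and 2.42 ± 0.77 (adjusted p = 0.0376 and 0.0465), and these calls held in 3 and 2 of 9 fits that left out 1 library. Against KO MSC the same list had 2 genes that rose and 0 that fell, with a median of 0.10 against 0.04 for all genes. They were the ligand Tgfb2 (2.52 ± 0.50, adjusted p = 0.0188) and Ltbp4 (2.87 ± 0.65, adjusted p = 0.0301), a partner of fibulin-5 in elastic fiber assembly. Both calls were lost without the library labelled KO_MSC 1 or KO_MSC 2, and that of Ltbp4 also without tumor 1 or 2, with adjusted p values of up to 0.0752 for Tgfb2 and 0.159 for Ltbp4.

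Of the 5 lysyl oxidases, which cross-link elastin and collagen, Lox and Loxl3 fell in tumors against WT MSC, by 1.95 ± 0.60 and 1.82 ± 0.56 (adjusted p = 0.0425 and 0.0407), with a list median of -1.82. Each call held in 3 of 9 fits that left out 1 library, those without tumor 1, 4 or 6. None of the 5 passed against KO MSC, where the nearest were Loxl4 (0.98 ± 0.46) and Loxl2 (1.38 ± 0.72), with a list median of 0.66. Of 8 tested ADAMTS and ADAMTS-like microfibril genes, Adamtsl3 and Thsd4, which encodes an ADAMTS-like protein that binds fibrillin-1, fell by 3.53 ± 0.40 and 2.64 ± 0.53 against WT MSC (adjusted p = 0.000992 and 0.00626), and both calls held without any 1 library. The median of that list was -0.73, and none passed against KO MSC (median -0.21), where Adamtsl3 was at -1.41 ± 0.48 and Thsd4 at -0.89 ± 0.64. Adamtsl2 was not tested.

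Of 14 other fibulin, emilin and microfibril genes, Mmrn2 rose and Vtn and Mfap1b fell against WT MSC, with a list median of -0.40, and 3 of 14 is a share near the 21.3% of all genes. Mmrn2, an emilin relative of the endothelial matrix, rose by 1.91 ± 0.49 (adjusted p = 0.0191), and the call was lost without any 1 of the WT MSC libraries. Markers of endothelial cells, 6 of 6 of which rose in the same comparison, had a summed level of 9.34 to 11.4 in tumors against 7.50 to 8.22 in WT MSC. Their part in the rise of Mmrn2 was not tested. Vtn, which encodes the adhesive protein vitronectin, fell by 2.59 ± 0.50 (adjusted p = 0.00523). Mfap1b fell by 1.64 ± 0.53 (adjusted p = 0.0478, held in 2 of 9 fits that left out 1 library), but in spite of its name its product is known as a splicing factor, and its near-identical copy Mfap1a could share its reads. None of the 14 passed against KO MSC (median 0.31), where the nearest were Mmrn2 (1.95 ± 0.53) and Mfap3 (0.92 ± 0.45).

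Of 9 tested enzymes that can cut elastin, Ctss (cathepsin S) and Mmp12 (macrophage elastase) rose and Elane and Prtn3, serine proteases of neutrophil granules, fell in tumors against WT MSC, with a list median of 1.01. Ctss rose by 7.06 ± 0.87 (adjusted p = 0.00118) against WT MSC and by 7.59 ± 0.85 (adjusted p = 0.00296) against KO MSC. Mmp12 rose by 1.48 ± 0.45 against WT MSC (adjusted p = 0.0381), a call that was lost without any 1 of the WT MSC libraries or tumor 5 or 6. Markers of macrophages rose in 6 of 6 genes in both comparisons, with a summed level of 13.7 to 17.6 in tumors, 7.52 to 9.36 in KO MSC and 7.55 to 9.14 in WT MSC. Elane fell by 5.08 ± 0.73 (adjusted p = 0.00168) and Prtn3 by 3.63 ± 0.59 (adjusted p = 0.00263) against WT MSC, and their differences of -5.66 ± 1.15 (adjusted p = 0.0202) and -4.49 ± 0.88 (adjusted p = 0.0179) against KO MSC passed as well. The summed level of 6 neutrophil markers, 1 of which is Elane, was 8.77 to 11.2 in tumors, against 11.8 to 17.3 in the libraries labelled KO MSC and 11.1 to 14.7 in WT MSC, although the MSC sort took CD45- cells. Within batches 1 and 2 the Elane difference against KO MSC was -9.61 and -3.50, and the call was lost without the library labelled KO_MSC 1 (adjusted p = 0.0876) or KO_MSC 2. The median of the list against KO MSC was 1.77. The part of macrophages and neutrophils in these differences was not tested, Mmp7 was not tested, and Ctsv was not in the table.

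Of 12 receptors of elastin and microfibrils, Itga8 and Itgb1, chains of an integrin that binds the triplet, fell in tumors against WT MSC, with differences of -2.596 ± 0.28 (adjusted p = 0.000945) and -1.43 ± 0.46 (adjusted p = 0.0464) and a list median of -0.20. The share of 2 in 12 is below the 21.3% of all genes, whose median was -0.06. The call of Itga8 held without any 1 library and that of Itgb1 in 3 of 9 such fits. Against KO MSC, Itgb3, a chain of the integrin that binds several of the members, rose by 2.49 ± 0.63 (adjusted p = 0.0453), a call that held in 1 of 9 such fits, and the list median was 0.33.

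**Figure D5:**
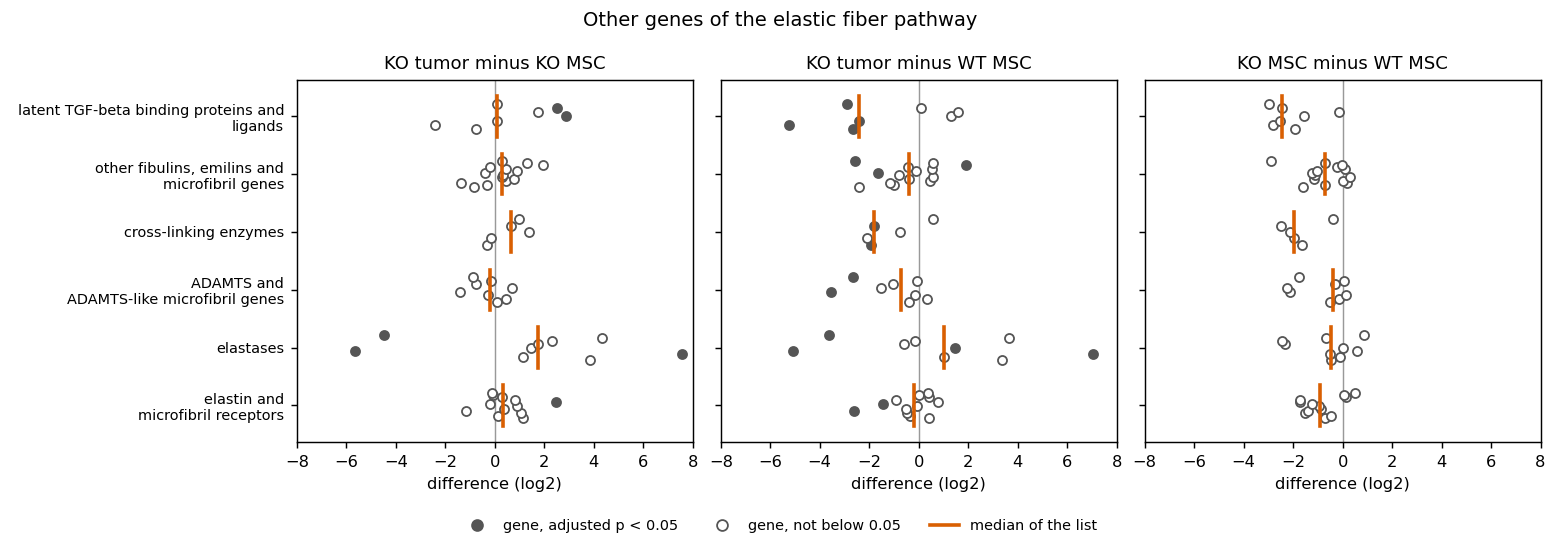
Difference in stabilized log2 value (horizontal axis) of each gene of the 6 lists (rows) in KO tumors minus KO MSC, KO tumors minus WT MSC and KO MSC minus WT MSC. Filled circles passed at an adjusted p under 0.05 and vertical bars are list medians. The median of the latent TGF-beta binding proteins and ligands is -2.42 in tumors against WT MSC and 0.10 in tumors against KO MSC.

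In the libraries labelled KO MSC against WT MSC, limma called 0 genes of any of these lists. All 7 latent TGF-beta binding proteins and ligands and all 5 lysyl oxidases had differences below 0, with medians of -2.44 and -1.97. In the first list Tgfb3 was at -2.98 ± 0.65 (SE, n = 3 each, unadjusted p = 0.00180) and Ltbp3 at -2.52 ± 0.59 (unadjusted p = 0.00277). In the second Loxl1, which cross-links elastin at sites of fibulin-5, was at -1.97 ± 0.46 (unadjusted p = 0.00269) and Loxl2 at -2.14 ± 0.55 (unadjusted p = 0.00487). The adjusted p was 0.551 for each of these 4 genes. Of the other lists, the receptor Itgb5 was at -1.73 ± 0.34 and Itga8 at -1.41 ± 0.52, the fibulin Efemp1 at -1.61 ± 0.40 and Vtn at -2.88 ± 0.79, Adamtsl3 at -2.13 ± 0.56 and Adamtsl4 at -2.23 ± 0.67, and the metalloproteases Mmp14 and Mmp2 at -2.35 ± 0.57 and -2.44 ± 0.96. The list medians were -0.92 for receptors, -0.71 for the other fibulins, emilins and microfibril genes, -0.40 for ADAMTS genes and -0.49 for elastases. Tgfb3 was at -1.28 in batch 1 and -3.83 in batch 2, and Ltbp3 at -1.15 and -3.21, further below 0 in batch 2. So were the members Fbn1, Fbn2, Fbln2, Eln, Emilin1 and Mfap5. The other members were further below 0 in batch 1. Fbln1 was at -1.60 and -0.96, Fbln5 at -1.56 and -1.34, Mfap2 at -1.44 and -0.094, and Mfap4 at -0.61 and -0.21. Batch 1 sets a single library, labelled KO_MSC 1, against WT_MSC 1 alone.

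The counts of markers of other cells stand beside 21.3% of all genes that passed against WT MSC and 4.98% against KO MSC. Adventitial and fascial fibroblast markers rose in 3 of 6 genes against each MSC group. These were Dpt, Cd34 and Ly6a, while Pi16, Dpp4 and Clec3b passed in neither comparison. The summed level of this list was 11.1 to 15.5 in tumors, 8.07 to 8.96 in KO MSC and 8.28 to 8.99 in WT MSC. Smooth muscle and pericyte markers, from cells that make elastic fibers in vessels, had 3 of 7 genes that rose and 1 that fell against WT MSC, and 1 that rose against KO MSC. Their summed level was 11.2 to 14.9 in tumors, 9.90 to 11.1 in KO MSC and 11.1 to 11.54 in WT MSC. The 3 that rose against WT MSC were Acta2, smooth muscle actin, by 5.31 ± 0.74 (adjusted p = 0.00159), the actin-binding Tagln by 1.86 ± 0.52 (adjusted p = 0.0285) and the pericyte marker Rgs5 by 1.71 ± 0.32 (adjusted p = 0.00443). Acta2 was also the gene that rose against KO MSC, by 5.21 ± 0.79 (adjusted p = 0.00611). The 1 that fell against WT MSC was Notch3, with a difference of -3.6448 ± 0.77878 (adjusted p = 0.008442). Against KO MSC the Notch3 difference was -2.6131 ± 0.79032 (adjusted p = 0.077735) and did not pass. Myh11, which marks mature smooth muscle, was between 5.00 and 6.33 in tumors, between 5.18 and 5.94 in KO MSC and between 5.18 and 6.16 in WT MSC, and did not pass. Stromal identity markers fell in 8 of 8 genes against WT MSC and in 4 of 8 against KO MSC, with a summed level of 10.52 to 13.4 in tumors, 17.5 to 18.3 in KO MSC and 17.6 to 20.04 in WT MSC. Erythroid markers fell in 2 of 5 genes against each MSC group, and 0 of 6 osteoblast, 0 of 4 chondrocyte and 0 of 5 skeletal muscle markers passed in either comparison. The part of all these cells in the members' differences was not tested.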

How the data were processed

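Values came from 2 tables that the authors deposited for 12 libraries. The main one holds log2 values of 24421 genes and is titled by the authors as variance-stabilized and batch-adjusted. The title of the other speaks of normalized counts, yet it holds a score: multiplying a stabilized value by 100, rounding it and dividing by a library's factor gave the deposited score for 100% of 18949 genes (tolerance 0.01). Depth is therefore unknown and no count test or counting interval was possible. Per the labels' protocols, cDNA was made with SMART-Seq v4 and the library kit leaves strand unmarked. The submitters' processing notes name Cufflinks 2.2.1, TopHat2 2.0.13, Cuffdiff and build mm10.

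For each comparison, its 2 groups alone entered a fit in limma 3.58.1 (R 4.3.3, eBayes with trend, two-sided, no covariates), over the 18948 varying genes listed in both tables, with Benjamini-Hochberg adjustment and a threshold of 0.05. The fit takes no account of the earlier batch adjustment, so its p-values can be too small. It was run on simulated data of independent normal values with the same SD of a gene in both groups. These data held no floor, no batch adjustment and no unequal spread, so they do not check the p-values under those. Alternatives were no filter, the score table, quantile scaling, 1 fit over all groups, library weights and a batch term. Others were single batches, a replicate block and leaving out each library. With no filter, all varying genes of the main table entered the fit. All 10 members were named, with the passing genes of each list, at most 4, or where none passed the 2 with the smallest p. The members and lists were chosen with earlier results of these data known.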

Additional observations from a re-analysis of the deposited data

Results flagged for a closer look

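Among the 10 members and 3 pairs, 2 tumor values stood apart from the other 5 of their gene by a gap larger than Dixon's 95% critical share of the range, 0.625 for 6 samples. Fbn1 was 7.10 in tumor 6, against 9.04 in the next lowest tumor, a gap of 0.645 of the range. Mfap4 was 11.27 in tumor 4, against 7.63 in the next highest, a gap of 0.794 of the range. Chance flags about 1 in 20 groups, and 13 were examined. Tumor 6 was also the lowest in Fbln1 (6.72) and Fbln5 (5.80). Tumor 4 was also the highest in the muscle genes Acta1 (19.28), Ckm (16.30) and Des (13.93) and in the macrophage gene C1qb (16.90).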

How the results depend on the processing

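In the MSC comparison, all alternatives called 0 genes except library weights (2447 genes, 4 members), and every member stayed below 0 in all 14. The sign of Mfap4 has little weight there, since all 3 libraries labelled KO MSC lay at its floor. In tumors against KO MSC, 944 genes and 2 members became 1481 genes with quantile scaling, 1923 and 5 in 1 fit over all groups, 4821 and 5 with library weights, 229 genes in batch 2 alone, and 3277 and 0 in batch 1 alone, an alternative chosen after seeing the data. In tumors against WT MSC, 4033 genes and 5 members became 6821 genes with library weights and 775 and 2 in batch 2 alone, while 3 members passed with no filter, 3 with a batch term and 1 in batch 1 alone. Leaving out 1 library gave 113 to 1627 genes and 0 to 4 members against KO MSC, 1856 to 4737 genes and 2 to 6 members against WT MSC, and 0 to 0 genes and 0 to 0 members between MSCs. Without the library labelled KO_MSC 1, 0 members passed against KO MSC. Library weights did not converge in 2 of 3 comparisons.

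The replicate numbers gave no clear sign that the libraries were paired. Same-numbered libraries had correlations of -0.15 to 0.24, -0.22 to 0.22 and -0.32 to 0.01, and 1 of 3, 1 of 6 and 0 of 6 libraries correlated best with their own number. Number and batch partly coincide, so a pairing could be neither shown nor excluded. With the replicate block, 0, 34 and 1445 genes and 0, 0 and 4 members passed between MSCs, against KO MSC and against WT MSC, and tumors 4 to 6 share no number with MSCs.

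Signs turned in 4 differences that did not pass. Against KO MSC, Fbln1 was -1.21 to 0.040 on leaving out 1 library (above 0 without tumor 6), and Emilin1 was 0.034 in batch 2 alone and -1.14 to 0.17 on leaving out 1 library (above 0 without the library labelled KO_MSC 1). Against WT MSC, Fbn2 was -0.21 with library weights and -0.14 to 0.60 on leaving out 1 library (below 0 without tumor 1). Mfap2 was -0.72 in batch 1 alone, -0.017 with the replicate block and -0.19 to 0.78 on leaving out 1 library (below 0 without tumor 2 or 4). The cause was not tested. Depth is unknown, so the counting error of low values, such as those of Mfap4 and Fbln2 in MSCs, cannot be given.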
